A study of Mus musculus with 2 samples.

Results

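Cytochrome P450 enzymes of families 1, 2 and 3 carry out most of the oxidation of drugs, toxins and steroids in the liver. They sit in the membrane of the endoplasmic reticulum, hold a heme group and draw electrons from P450 reductase, and many are made mainly by hepatocytes close to the central vein. Their genes respond to nuclear receptors and the aryl hydrocarbon receptor (AhR), and their transcripts are known to be low in inflamed liver. The genes described here were the protein-coding rows whose GENCODE M21 symbol begins with Cyp1, Cyp2 or Cyp3 and a 1-letter subfamily, without the Cyp2c genes. This rule gave 45 genes in 15 subfamilies, of 47442 features in each table.

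The study sequenced liver RNA of C57BL/6 mice aged 8 to 9 weeks, taken 10 days after an adenovirus had been injected into the tail vein. The control virus encoded β-galactosidase (β-Gal), an enzyme of bacteria with no role in the liver, and the other encoded GBP5, an interferon-inducible GTPase. Both groups therefore received an adenovirus, and no uninjected liver was analysed here. The sources used here name neither the promoter that drives the transgene nor how many mice a library represents. Each group held 1 library, so no test, SD or p-value could be computed. Values written "with β-Gal" and "with GBP5" are those of the single library of each group, in that order where 2 values stand side by side, and a gene called lower or higher is so with GBP5. Variation between mice and an effect of GBP5 cannot be told apart here.

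The tables hold FPKM, fragments scaled to gene length and to the reads assigned to genes. Their steps gave 18405429 assigned reads with β-Gal and 17205716 with GBP5. Gbp5 itself was at 4.24 FPKM with β-Gal and 19.1 FPKM with GBP5. Most features were above parity in the deposited FPKM, with a median ratio of 1.45 over the 11828 features that reached 1 FPKM in both libraries. Values are therefore also given after the GBP5 library was rescaled by that median, called "rescaled" below, which lowers every log2 ratio of an abundant gene by 0.53. Xist was at 0.0174 and 0.0558 FPKM and the Y-linked transcript Ddx3y at 32.4 and 42.0 FPKM, and Uty and Kdm5d differed by log2 ratios of 0.58 and 0.05. All 9 matched hepatocyte markers were detected, and their summed level was 89342 FPKM with β-Gal and 51722 FPKM with GBP5, 1.73-fold lower. Most of that sum was Alb, at 74174 and 43416 FPKM. Ratios of single markers ran from 0.298 (Serpina1c) to 1.04 (Apob).

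P450 transcripts as a group were lower with GBP5, but not evenly. Of the 45 genes, 25 reached 1 FPKM in at least 1 library and are called measured. A gene was called past 2-fold when the log2 ratio of GBP5 to β-Gal, with 1 FPKM added to each value, reached 1 or -1. By this rule 11 of 25 were lower, where 5.56% of all 13599 measured features were, and 2 of 25 were higher, where 19.2% of all measured features were. After rescaling 14 were lower and 2 higher, against 9.38% and 7.04% of all measured features. The median log2 ratio of the 25 genes was -0.74 as deposited and -1.22 rescaled, against 0.48 and 0.03 over all measured features. Since RNA came from whole liver, fewer hepatocytes and less P450 RNA per hepatocyte cannot be told apart.

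**Figure D1:**
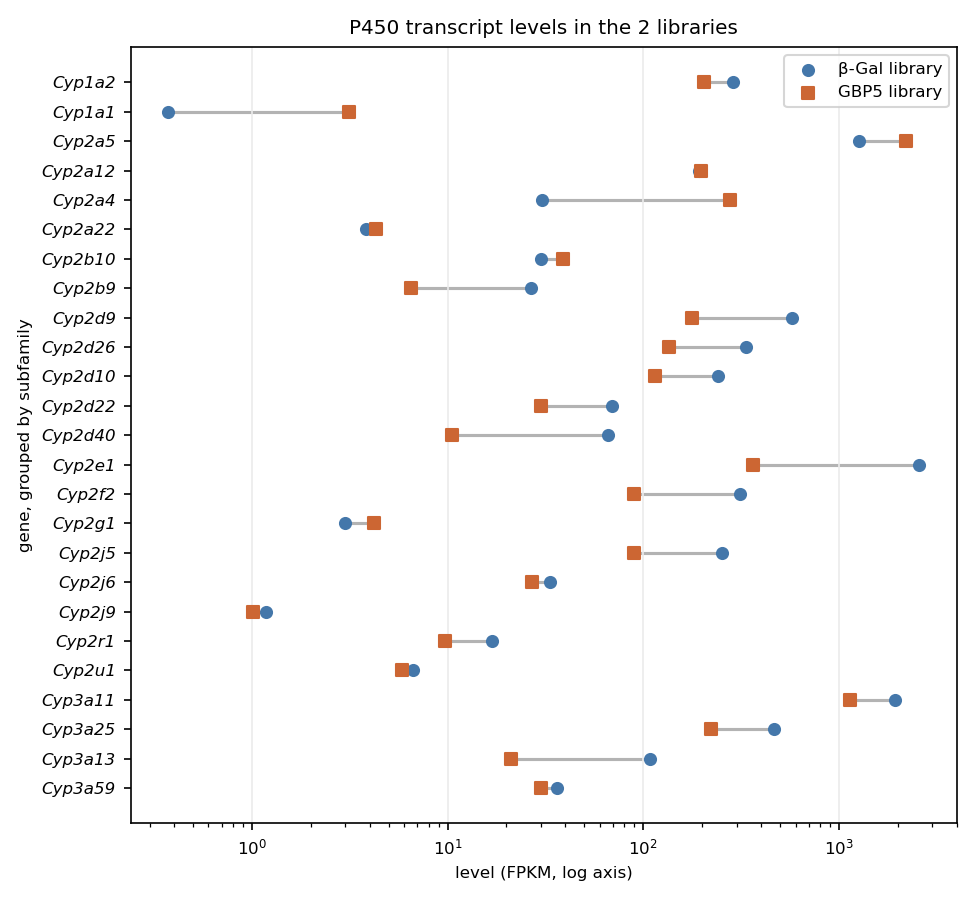
Level of the 25 measured genes with β-Gal (circles) and with GBP5 (squares), in FPKM on a log axis, 1 library per group and no error bars. The genes range from Cyp1a1 at 0.373 FPKM to Cyp2e1 at 2576 FPKM with β-Gal, and 18 of the 25 squares lie left of their circle.

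The pool of these transcripts was smaller and of a different make-up. Their FPKM summed to 8857 with β-Gal and 5395 with GBP5, 1.64-fold lower, and without Cyp2e1 the sum was 1.25-fold lower. A share within the pool does not depend on how the libraries are scaled to each other. Cyp2a genes held 16.8% of the pool with β-Gal and 49.6% with GBP5. Cyp2e1 held 29.1% and 6.71%, and Cyp2d genes 14.5% and 8.68%. Cyp3a genes kept a similar part, with 28.7% and 26.1%. As judged from their steps, the deposited FPKM divide by the mean length of the annotated isoforms, which raises genes with short isoforms such as Cyp2a5. When lengths were taken from the longest isoform instead, a choice made after the data were seen, Cyp2a genes held 12.4% and 40.9%, and Cyp3a genes 35.3% and 34.3%.

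**Figure D2:**
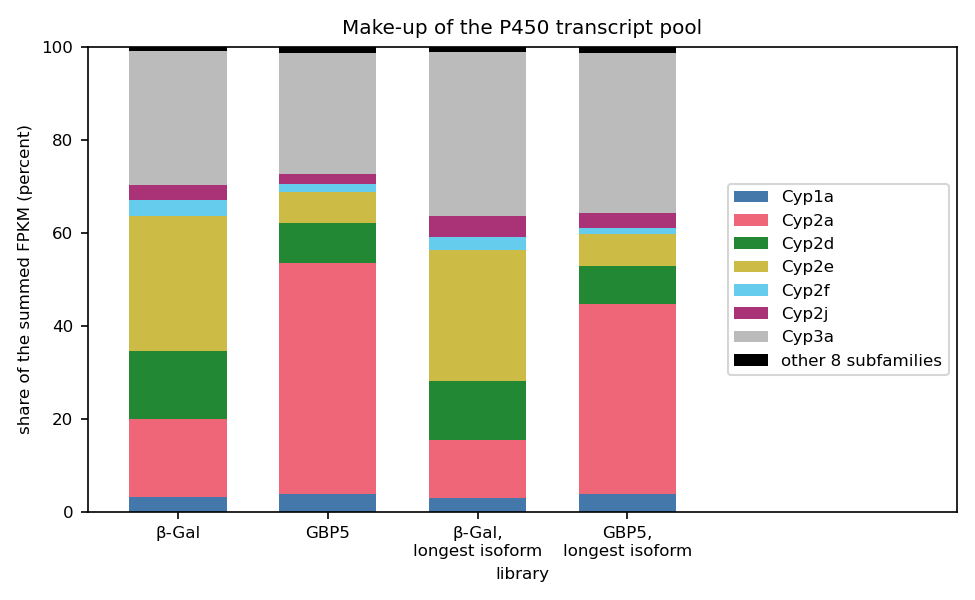
Share of each subfamily in the summed FPKM of the 45 genes, in percent, for the β-Gal and GBP5 libraries, as deposited and with the longest isoform as gene length. The Cyp2a segment grows from 16.8% to 49.6%, and the Cyp2e segment shrinks from 29.1% to 6.71%, as deposited.

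The order of levels differed between the libraries. With β-Gal Cyp2e1 was highest at 2576 FPKM, before Cyp3a11 at 1930 FPKM and Cyp2a5 at 1259 FPKM. With GBP5 Cyp2a5 was highest at 2194 FPKM, before Cyp3a11 at 1136 FPKM, Cyp2e1 at 362 FPKM and Cyp2a4 at 278 FPKM. Cyp2a4 thus moved from rank 17 to rank 4 of the 45 genes. By the longest isoform, Cyp3a11 and Cyp2e1 were nearly level with β-Gal at 1773 and 1756 FPKM, so their order rests on the length used. Cyp2a5 stayed first with GBP5, at 1044 FPKM against 1043 FPKM for Cyp3a11, so the size of its lead rests on the length used.

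**Figure D3:**
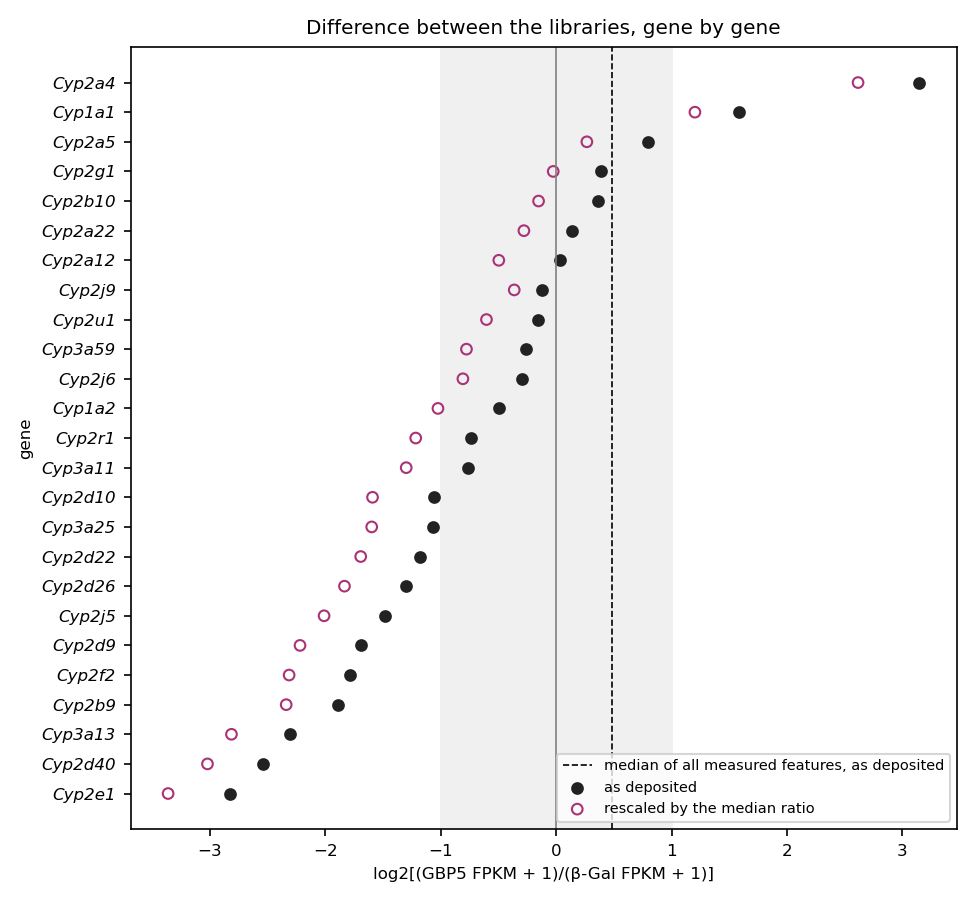
Log2 ratio of the 25 measured genes with a pseudocount of 1 FPKM, as deposited (filled) and rescaled by the median ratio (open). The shaded band is less than 2-fold and the dashed line the median of all measured features, 0.48. Cyp2a4 and Cyp1a1 lie above the band and 11 genes below it as deposited, and 14 below it rescaled.

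Cyp1a enzymes oxidise planar aromatic compounds, and their transcription is the classic readout of AhR. Cyp1a1 (ENSMUSG00000032315, chr9:57687928-57703824, GRCm38) was at 0.373 FPKM with β-Gal and 3.13 FPKM with GBP5, an 8.38-fold higher level from about 18 and 143 reads, and 5.79-fold rescaled. Cyp1a2, the form that healthy hepatocytes express constitutively, was at 289 and 205 FPKM, 1.41-fold lower, and passed 2-fold only after rescaling, at 2.04-fold. The neighbouring genes of the subfamily thus stood on opposite sides of parity, with Cyp1a1 remaining a minor transcript. Cyp1b1, which is expressed mainly outside hepatocytes, was at 0.212 and 0.329 FPKM.

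Among other genes that AhR is known to induce, 2 of 5 measured were higher and none was lower on either scale. Of all measured features 19.2% were higher and 5.56% lower as deposited, and 7.04% and 9.38% rescaled. Nqo1, a quinone reductase also induced by the stress-response factor NRF2, was at 10.1 and 72.0 FPKM, 7.09-fold higher (95% interval 6.27 to 8.05). Fgf21, a hepatic hormone, was 6.70-fold higher and Tiparp, an ADP-ribosyltransferase that represses AhR, 1.64-fold higher, with a log2 ratio of 0.16 rescaled. The remaining measured genes, Ugt1a6a and Lrat, had ratios of 1.07 and 0.887 as deposited. Ahrr and Aldh3a1 did not reach 1 FPKM in either library. Ahr transcripts were at 22.8 and 24.8 FPKM, a ratio of 1.09 (interval 0.996 to 1.18). These and all later intervals were derived by the exact Clopper-Pearson method, computed only where both values came out as whole reads. With 1 library per group they cover counting error only, not variation between mice. Even for counting error they may be too narrow, since copies made by PCR are not independent molecules.

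None of the 4 Cyp2a genes lay below parity as deposited. Cyp2a4 (ENSMUSG00000074254, chr7:26307169-26315088), a testosterone hydroxylase that female mouse liver makes in larger amounts, was at 30.5 FPKM with β-Gal and 278 FPKM with GBP5. The 976 and 8316 reads behind these values gave a 9.11-fold higher level (interval 8.53 to 9.75), 6.30-fold rescaled, the highest ratio of the 25 genes. Cyp2a5 (chr7:26835305-26843548), which oxidises coumarin and nicotine in the mouse, was at 1259 and 2194 FPKM, 1.74-fold higher and 1.20-fold rescaled. Cyp2a12, which hydroxylates bile acids, was at 193 and 198 FPKM with a ratio of 1.02 (interval 0.995 to 1.06). Cyp2a22 was at 3.83 and 4.32 FPKM, and both it and Cyp2a12 went below parity after rescaling, at log2 ratios of -0.28 and -0.50. The summed Cyp2a level was 1.80-fold higher, and 1.24-fold rescaled.

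Cyp2a4 and Cyp2a5 are close copies, so it matters whether reads could pass from one to the other. Their annotated proteins, of 494 residues each, were 97.6% identical, and 11.2% of the 100-base windows of the longest Cyp2a4 transcript also occurred in a Cyp2a5 transcript. The window length was chosen and only exact matches were counted, so shorter reads or tolerated mismatches would leave more of the pair ambiguous. Counted together, the pair held about 23176 reads with β-Gal and 44472 with GBP5, 2.05-fold more per assigned read. Cyp2a4 took 4.21% of the pair's reads with β-Gal and 18.7% with GBP5. No source used here says how the authors treated reads with several matches.

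The region around the start of both genes was also nearly the same, and it is shown because the pair differed so widely in ratio. The windows run from 250 bases before to 50 after the RefSeq start (GRCm38.p6), on the plus strand at chr7:26306942-26307241 for Cyp2a4 and chr7:26835089-26835388 for Cyp2a5. Capitals mark the bases that differ or have no partner in the alignment, 5 mismatches and 2 unpaired end bases over 301 columns, for an identity of 97.7%.
Cyp2a4: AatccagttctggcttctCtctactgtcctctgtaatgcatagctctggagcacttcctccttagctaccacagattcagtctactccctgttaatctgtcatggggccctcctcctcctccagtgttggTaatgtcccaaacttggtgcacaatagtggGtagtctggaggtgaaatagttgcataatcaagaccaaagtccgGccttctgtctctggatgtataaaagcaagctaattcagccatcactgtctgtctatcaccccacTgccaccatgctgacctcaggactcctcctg
Cyp2a5: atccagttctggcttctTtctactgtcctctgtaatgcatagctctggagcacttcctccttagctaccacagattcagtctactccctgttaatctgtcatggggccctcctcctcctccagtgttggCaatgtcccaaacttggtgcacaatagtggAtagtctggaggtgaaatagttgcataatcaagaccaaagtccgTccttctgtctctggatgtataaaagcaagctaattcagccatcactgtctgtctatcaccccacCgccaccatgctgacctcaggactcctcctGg
Each window held the nuclear receptor core motif AGGTCA once (read on either strand, with no overlap with another motif searched), after the start. At any position, that motif was in 15 of the 39 windows found for the 45 genes and in 16.2% of 32544 promoter windows of all genes. Some of the windows with it are close copies, as with Cyp2a4 and Cyp2a5, so they are not independent. None of the 39 windows held the AhR motif TNGCGTG, including those of Cyp1a1 and Cyp1a2, against 5.09% of all windows. The NRF2 motif TGACNNNGC was in the window of 1 gene, Cyp2j6, against 12.4% of all windows. Sites more than 250 bases before the start were not searched, so motifs there would be missed.

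Cyp2b enzymes are the classic targets of CAR, the receptor that responds to phenobarbital. Cyp2b10, the most inducible mouse form, was at 30.0 FPKM with β-Gal and 39.0 FPKM with GBP5, a ratio of 1.30 that was below parity after rescaling, at 0.897. Cyp2b9, a form that is higher in female than in male mouse liver, was at 26.6 and 6.48 FPKM, 4.11-fold lower (interval 3.54 to 4.81, from 920 and 209 reads). Cyp2b13, another female-biased form, had 1 and 9 reads, too few for a level. The start windows of Cyp2b9 and Cyp2b13 were 99.3% identical, and those of Cyp2b9 and Cyp2b10 71.7%. Transcripts of CAR itself (Nr1i3) were at 10.6 and 2.61 FPKM, 4.08-fold lower. PXR (Nr1i2), the receptor behind most Cyp3a induction, was at 35.7 and 55.9 FPKM, 1.57-fold higher (interval 1.47 to 1.67). Rescaled, the log2 ratio was -2.05 for Nr1i3 and 0.11 for Nr1i2.

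Other genes that CAR or PXR are known to induce lay on both sides: of 13, 3 were higher and 2 lower as deposited, and 3 and 3 rescaled. Among all measured features 19.2% were higher and 5.56% lower as deposited, and 7.04% and 9.38% rescaled. The 2 lower as deposited, named after their values were seen, were Ugt1a1 at 3.39-fold and Ces2a at 2.73-fold. Gsta1, a glutathione transferase, was at 27.5 and 1025 FPKM, Gadd45b, a stress-response protein, 5.30-fold higher and Abcb1a, a drug efflux pump, 4.15-fold higher. Some of these, Gsta1 among them, are also known NRF2 targets. Nfe2l2, which encodes NRF2, was at 41.9 and 93.2 FPKM, 2.22-fold higher (interval 2.09 to 2.36), with a log2 ratio of 0.61 rescaled.

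Each of the 5 measured Cyp2d genes was past 2-fold on the low side, whichever scale was used. Among all measured features 5.56% were so as deposited and 9.38% rescaled. Cyp2d10 passed only narrowly, at a log2 ratio of -1.06 as deposited and -1.001 when both libraries were given the same FPKM sum. The subfamily takes part in steroid and alkaloid oxidation, and in the mouse Cyp2d9 is a male-biased testosterone hydroxylase. Cyp2d9 (ENSMUSG00000068086, chr15:82433437-82456845) was at 573 FPKM with β-Gal and 177 FPKM with GBP5, 3.23-fold lower. Cyp2d40 was at 66.2 and 10.6 FPKM, 6.27-fold lower, the largest difference of the subfamily. Cyp2d26 was at 334 and 135 FPKM, Cyp2d10 at 241 and 115 FPKM and Cyp2d22, often likened to human CYP2D6, at 69.5 and 30.1 FPKM. These were 2.48-fold, 2.10-fold and 2.30-fold lower. The log2 ratios of the subfamily ran from -2.54 to -1.06, so that no measured member lay near parity. Cyp2d11 and Cyp2d12 had 13 reads or fewer in either library and Cyp2d34 was listed at 0 in both. Close copies add uncertainty here: 14.8% of the 100-base windows of Cyp2d10 and 9.86% of those of Cyp2d9 also occur in another Cyp transcript, whereas Cyp2d40 shares none.

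Cyp2e1 (ENSMUSG00000025479, chr7:140763739-140774987) oxidises ethanol and turns paracetamol into its toxic metabolite, and it is a marker of hepatocytes near the central vein. It went from 2576 FPKM with β-Gal to 362 FPKM with GBP5, 7.11-fold lower from about 59229 and 7782 reads, and 10.3-fold lower rescaled. This was the lowest ratio of the 25 genes, and it shares no 100-base window with another Cyp transcript. Cyp2f2, which activates naphthalene in lung and in the liver marks hepatocytes near the portal vein, was at 311 and 89.4 FPKM, 3.47-fold lower (interval 3.29 to 3.67). Markers of opposite ends of the liver lobule were thus both lower.

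Other zonal genes are given by list. Of 11 measured pericentral genes, 6 were lower and none higher (8 and none rescaled), with a median log2 ratio of -1.03. Rgn, a calcium-binding lactonase, was 7.19-fold lower, Oat, ornithine aminotransferase, 5.30-fold and Gulo, the last enzyme of vitamin C synthesis, 3.46-fold. Of 12 periportal genes, 5 were lower and 2 higher (6 and 1 rescaled), with a median of -0.53. Hal, histidine ammonia-lyase, was 10.5-fold lower, Gls2, liver glutaminase, 5.47-fold and Pck1, an enzyme of gluconeogenesis, 5.09-fold. The 2 that were higher, named after their values were seen, were Gldc, an enzyme of glycine breakdown, at 3.62-fold and Hsd17b13, a lipid droplet protein, at 2.61-fold, of which only Gldc passed 2-fold rescaled. Among all measured features 5.56% were lower and 19.2% higher (9.38% and 7.04% rescaled). A difference between the zones was not tested.

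Cyp2j enzymes turn polyunsaturated fatty acids into epoxides. Of 8 genes, 3 were measured, and all 3 lay below parity. Cyp2j5 (ENSMUSG00000052520, chr4:96628773-96664154), the abundant form of liver and kidney, was at 252 FPKM with β-Gal and 89.7 FPKM with GBP5, 2.81-fold lower (interval 2.71 to 2.92, from 10892 and 3619 reads). Cyp2j6 was at 33.2 and 26.9 FPKM, a ratio of 0.809 (interval 0.759 to 0.863). For Cyp2j9, with 50 and 40 reads, no difference was detectable at this depth, with a ratio of 0.856 (interval 0.550 to 1.32). Cyp2j8 had 0 and 1 read, and Cyp2j7, Cyp2j11, Cyp2j12 and Cyp2j13 were listed at 0 in both libraries.

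Cyp3a enzymes clear a large part of drugs and bile-derived steroids. Cyp3a11 (ENSMUSG00000056035, chr5:145854426-145879964), the main adult mouse form, was at 1930 FPKM with β-Gal and 1136 FPKM with GBP5. It was 1.70-fold lower (interval 1.68 to 1.72, from 91420 and 50301 reads) and passed 2-fold only after rescaling, at 2.46-fold. Cyp3a13, which lies apart from the others on chromosome 5 and is also made in the gut, was at 108 and 21.1 FPKM, 5.13-fold lower (interval 4.81 to 5.48). Cyp3a25 was at 464 and 221 FPKM, 2.10-fold lower, and its close copy Cyp3a59 at 36.4 and 30.2 FPKM, 1.21-fold lower. The forms known as female-biased or fetal stayed scarce: Cyp3a44 had 29 and 9 reads, Cyp3a41a 0 and 6 and Cyp3a16 0 and 2. Cyp3a57 had 0 and 5 reads and Cyp3a41b was listed at 0 in both, although 88.2% of its 100-base windows also occur in Cyp3a41a.

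Cyp3a25 and Cyp3a59 lie head to head, and their start regions are shown as a second pair of close copies with unlike ratios. In all 6.05% of the 100-base windows of Cyp3a25 occurred in Cyp3a59, and together the pair was 1.94-fold lower. The RefSeq windows (GRCm38.p6) are chr5:146009569-146009868 on the minus strand and chr5:146079008-146079307 on the plus strand, with capitals at 11 mismatches and 2 unpaired end bases, for an identity of 95.7%.
Cyp3a25: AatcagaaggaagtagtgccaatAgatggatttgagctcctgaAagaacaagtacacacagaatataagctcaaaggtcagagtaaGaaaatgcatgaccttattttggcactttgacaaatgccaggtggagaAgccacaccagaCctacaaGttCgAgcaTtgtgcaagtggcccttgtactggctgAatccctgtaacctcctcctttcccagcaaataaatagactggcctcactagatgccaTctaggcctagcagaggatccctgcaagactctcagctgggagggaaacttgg
Cyp3a59: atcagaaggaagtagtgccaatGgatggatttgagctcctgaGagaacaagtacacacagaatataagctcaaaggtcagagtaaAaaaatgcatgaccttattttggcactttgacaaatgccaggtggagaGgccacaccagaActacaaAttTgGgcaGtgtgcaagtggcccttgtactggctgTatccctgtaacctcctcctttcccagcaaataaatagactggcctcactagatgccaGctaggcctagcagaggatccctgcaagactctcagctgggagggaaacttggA
The start region of Cyp3a11 (chr5:145879805-145880104, minus strand) is shown because it holds the HNF4A motif CAAAGTCCA, in capitals.
Cyp3a11: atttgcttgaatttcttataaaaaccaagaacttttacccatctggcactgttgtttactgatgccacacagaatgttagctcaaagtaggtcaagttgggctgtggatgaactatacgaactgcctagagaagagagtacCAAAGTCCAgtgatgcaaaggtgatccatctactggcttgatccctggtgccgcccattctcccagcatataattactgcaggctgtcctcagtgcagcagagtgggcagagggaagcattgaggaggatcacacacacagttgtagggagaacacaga
That motif, searched on both strands, was in 4 of the 39 windows, those of Cyp3a11, Cyp3a16, Cyp3a41a and Cyp3a41b, and in 0.479% of all windows. The windows of Cyp3a16, Cyp3a41a and Cyp3a41b were 89.9% to 97.0% identical to each other, so their matches are not independent. The HNF4A motif did not overlap the core motif AGGTCA, which the Cyp3a11 window holds elsewhere. The STAT5 motif TTCNNNGAA was found in the windows of Cyp2j11 and Cyp2j12, against 8.33% of all windows. Such matches describe the letters and say nothing of binding.

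**Figure D4:**
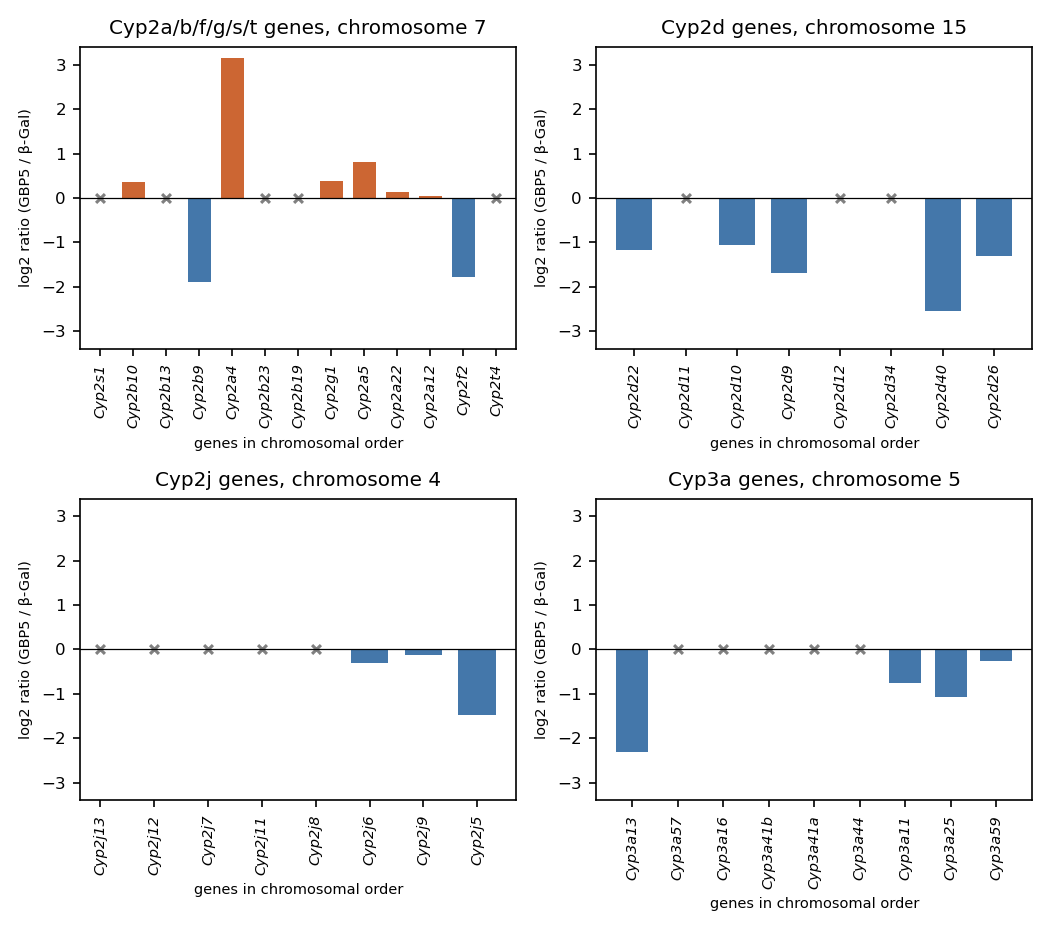
Log2 ratio of genes in chromosomal order, evenly spaced, for the groups on chromosomes 7, 15, 4 and 5, as deposited. Crosses mark genes under 1 FPKM in both libraries. Cyp2a4 at 3.15 stands next to Cyp2b9 at -1.89, while every measured Cyp2d gene is at -1.06 or lower; Cyp2a12, Cyp2a22, Cyp2b10 and Cyp2g1 change sign after rescaling.

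On chromosome 7, 13 of the genes lie within 1356 kb (chr7:25802475-27158668), and the gene with the highest ratio stands beside one with a low ratio. Cyp2b9 and Cyp2a4 are neighbours among the protein-coding members and had log2 ratios of -1.89 and 3.15, and Cyp2a12 and Cyp2f2, neighbours as well, had 0.03 and -1.78. Within the 424 kb of the Cyp2d genes on chromosome 15, by contrast, all measured ratios had the same sign.

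The remaining genes are scarce in liver. Cyp2r1, the main microsomal vitamin D hydroxylase, was at 17.0 FPKM with β-Gal and 9.75 FPKM with GBP5, 1.74-fold lower and 2.52-fold rescaled. Cyp2u1, a fatty acid hydroxylase, was at 6.67 and 5.86 FPKM. Cyp2g1, known from olfactory tissue, was at 2.98 and 4.22 FPKM, a ratio of 1.42 (interval 1.01 to 1.98, from 65 and 86 reads) that became 0.978 after rescaling. Of the 20 genes that were not measured, 9 were listed at 0 in both libraries, among them Cyp2b19, Cyp2b23 and Cyp2w1, where 3 reads would have been 0.0745 to 0.187 FPKM. The other 11, including Cyp2s1 with 11 and 20 reads and Cyp2t4 with about 2 and 5, did not pass 0.803 FPKM. Markers of nose, lung and skin, where some of these genes are chiefly expressed, were mostly at or near 0: Scgb1a1 and Sftpc were listed at 0 in both libraries, Omp had 5 and 6 reads, Krt10 was at 1.25 and 0.638 FPKM, and Krt5 was listed at 0 with β-Gal and at 6.32 FPKM with GBP5. Their part in the levels above was not tested.

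Most regulators of P450 genes stayed under 2-fold. Of 23 measured, 5 were lower and 1, Nfe2l2, higher (7 and 0 rescaled), and the median was -0.03. Shares over all measured features were 5.56% lower and 19.2% higher (9.38% and 7.04% rescaled), with a median of 0.48. Lower regulators were thus more frequent than lower features in general, and higher ones less frequent. Hnf4a, which maintains hepatocyte gene expression, was at 418 and 383 FPKM, a ratio of 0.916 (interval 0.896 to 0.937). Dbp, a clock-controlled factor that drives several P450 genes, was 5.07-fold lower. Cux2, a repressor found in female liver, was at 6.95 FPKM with β-Gal and 0.132 FPKM with GBP5.

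Most partners of the enzymes stayed under 2-fold as well. Of 15 genes for electron partners, heme synthesis and heme breakdown, 2 were higher and 1 lower (1 and 3 rescaled), with a median of 0.18. The shares of all measured features were 19.2% higher and 5.56% lower (7.04% and 9.38% rescaled), with a median of 0.48. P450 reductase (Por) was at 703 FPKM with β-Gal and 554 FPKM with GBP5, 1.27-fold lower. Alas1, the rate-limiting enzyme of heme synthesis, was at 447 and 220 FPKM, 2.03-fold lower. Hmox1, which breaks heme down, was at 29.8 and 96.8 FPKM and Blvrb, a biliverdin reductase, at 166 and 432 FPKM, 3.24-fold and 2.61-fold higher. After rescaling Blvrb no longer passed 2-fold, with a log2 ratio of 0.85.

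**Figure D5:**
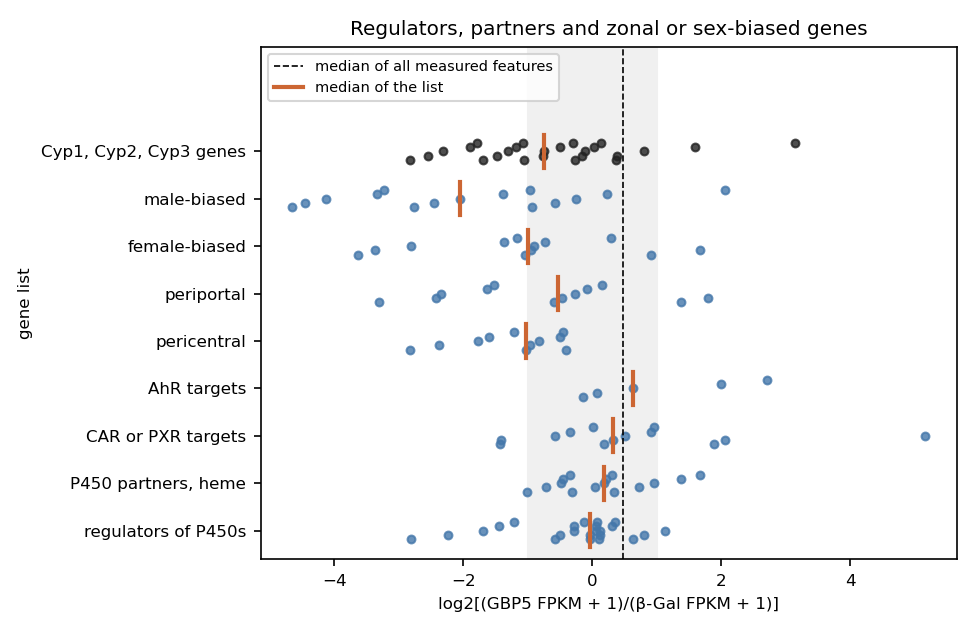
Log2 ratio of the measured genes of 8 lists of other genes and of the 25 Cyp1, Cyp2 and Cyp3 genes, as deposited. Bars are list medians and the dashed line the median of all measured features, 0.48. The P450 median, at -0.74, lies below those of the regulators (-0.03), partners (0.18), CAR or PXR targets (0.32), AhR targets (0.64) and periportal genes (-0.53), and above those of the female-biased (-0.99), pericentral (-1.03) and male-biased genes (-2.04).

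Sex-biased forms did not share a direction. The female-biased Cyp2a4 was higher and Cyp2b9 lower, and the male-biased Cyp2d9 was lower. Of 12 measured female-biased genes outside the P450 genes described here, 6 were lower and 1 higher (8 and 1 rescaled), with a median of -0.99, and Cyp2c69 and Cyp2c40 were 43.8-fold and 11.8-fold lower. Of 15 male-biased genes, 9 were lower and 1 higher (12 and 1 rescaled), with a median of -2.04. Across all measured features 5.56% were lower and 19.2% higher (9.38% and 7.04% rescaled). Serpina1e was at 2388 and 94.4 FPKM, Slco1a1 at 92.8 and 4.39 FPKM, and Hsd3b5 had 599 and 0 reads.

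Markers of other liver cells lay on both sides of parity. Of 11 measured, 4 were higher and 2 lower (2 and 2 rescaled), with a median log2 ratio of 0.24 as deposited and -0.28 rescaled. Of all measured features 19.2% were higher and 5.56% lower (7.04% and 9.38% rescaled). Col1a1, a collagen of stellate cells, was at 5.64 and 23.7 FPKM. The other 3 past 2-fold on the high side, named after their values were seen, were the T cell gene Cd3e, the macrophage gene Adgre1 and the leukocyte gene Ptprc, 3.76-fold, 2.32-fold and 2.30-fold higher, of which only Cd3e passed 2-fold rescaled. On the low side were the neutrophil gene S100a8, at 840.2 and 88.1 FPKM, and Krt19, a bile duct keratin, at 4.76 and 0.710 FPKM. The summed level of all 12 markers was 1037 FPKM with β-Gal and 366 FPKM with GBP5, and without S100a8, a choice made after the data were seen, 197 and 278 FPKM. Among the hepatocyte markers 5 of 9 were lower and none higher (7 and none rescaled), with a median of -1.12, and Serpina1c, Fgb and Tat were 3.36-fold, 3.16-fold and 2.94-fold lower. The part of these cell and hepatocyte differences in the P450 values was not tested.

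Related P450 genes gave other medians, with no test of the difference possible. Of 13 measured Cyp2c genes, 7 were lower and 2 higher, with a median log2 ratio of -2.56. Of 15 measured Cyp4 genes, which encode fatty acid hydroxylases, 4 were lower and 5 higher, with a median of -0.39. For all measured features the shares were 5.56% lower and 19.2% higher (9.38% and 7.04% rescaled). After rescaling, 10 Cyp2c genes were lower and 1 higher, with a median of -3.07, and 6 Cyp4 genes were lower and 1 higher, with a median of -0.92, so the balance of the Cyp4 counts turned.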

How the data were processed

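Liver RNA of 2 groups was sequenced, 1 library each, grouped by the virus in the labels. The authors deposited FPKM per gene, and TopHat2, HTSeq 0.6.1 and the GRCm38 build are named, per the submitters' processing notes; no source used here gives the annotation release, strand setting or FPKM program. Symbols and positions came from GENCODE M21 by identifier (46488 of 47442 features). FPKM times mean isoform length came in steps of 1 read: among genes with 1 isoform, 90.2% and 91.0% of values above 0 were whole within 0.02 reads. Reads were whole in both libraries for 10 of the 25 measured genes; other reads are given as "about". Protein identity used annotated coding sequences, and shared 100-base windows exact matches between Cyp transcripts. Promoter windows came from RefSeq (GRCm38.p6, 39 of 45 genes). No significance test was made. Every gene of the rule is accounted for; of each other list the 3 largest differences and 8 fixed genes are named. Genes, lists and rules were chosen with earlier results of these data known. Of the list symbols only Tf had no match. Alternatives were 2 pseudocounts, 2 filters, 3 scalings, leaving out close copies or Cyp2e1, and, chosen after seeing the data, the longest isoform. Python 3.11.15, numpy 2.4.6, pandas 2.3.3, scipy 1.17.1, Biopython 1.88 and matplotlib 3.10.9 were used.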

Additional observations from a re-analysis of the deposited data

How the results depend on the processing

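The count of lower genes stayed within 1.5 times under every alternative run, and no gene past 2-fold changed direction. Only 2 genes were higher, so that count became 1 with a pseudocount of 5 FPKM (Cyp1a1 at 0.60), with a filter of 5 FPKM, which drops Cyp1a1, and without close copies, which drops Cyp2a4. The median log2 ratio of -0.74 became -0.20 with no filter, -1.06 with a filter of 5 FPKM, -1.22 after rescaling by the median ratio and -0.87 with equal sums without the 50 most abundant genes. The summed ratio of 0.609 became 0.421, 0.635 (TPM) and 0.549 under the 3 scalings, 0.801 without Cyp2e1 and 0.575 with the longest isoform. With the longest isoform the shares with β-Gal and GBP5 were 12.4% and 40.9% for Cyp2a, 12.8% and 8.14% for Cyp2d, 28.1% and 6.86% for Cyp2e, and 35.3% and 34.3% for Cyp3a; the length used sets these shifts by construction. Rescaling by the median took Cyp1a2, Cyp2r1 and Cyp3a11 past 2-fold and turned the sign of 4 genes under 2-fold. No paired analysis was possible because each group held 1 library. Precision is limited by that number, and for genes under 1 FPKM by counts of 0 to 29 reads.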

Other observations

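The tables held rows for 11 pseudogenes of these subfamilies, and 1 of them reached 1 FPKM. Cyp2d37-ps, a transcribed pseudogene on chromosome 15 (chr15:82688750-82693148), was at 57.0 FPKM with β-Gal and 11.3 FPKM with GBP5, 5.03-fold lower, where Cyp2d40 was 6.27-fold lower. Cyp2d41-ps was at 0.904 and 0.657 FPKM. The pseudogenes Cyp2b26-ps, Cyp2j14-ps and Cyp2j15-ps were listed at 0 in both libraries.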
